A study of Mus musculus with 11 samples.

Results

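The promoters described here are those in which ST18 ChIP reads, scaled to the input, were enriched over input reads, after the heat-shock, chaperonin, J-protein and Frizzled genes were set aside. They were chosen from a table of reads in 21881 promoter windows of 1000 bp, 1 window per gene symbol. A window was taken when its log2 enrichment was at least 0.58. To obtain the enrichment, ST18 counts were multiplied by 0.4055, 16 was added to both columns, and the log2 of their ratio was taken. This held for 252 windows, 1.15% of all. Leaving out St13, Chordc1 and symbols that start with Hsp, Cct, Dnaj or Fzd removed 15 of these, and 237 remained of the 21785 windows outside those families (1.09%). The same counts chose the 237 windows and describe them below, so their enrichment is a description and carries no test.

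The series holds 11 mouse samples. The windows come from 2 chromatin immunoprecipitation samples made with an antibody to an HA tag and 1 input sample, all from brain cells cultured in vitro that the labels call TN, with no strain, age or further treatment given there for these samples. The table has 1 ST18 column and 1 input column, and the sources used here do not state whether the ST18 column holds one of the ChIP samples or both, so no value has a replicate check. The input sample is input by title and description, although its molecule label reads HA ChIP. The RNA samples, 4 with knockdown of ST18 and 4 with a non-targeting construct, were not analysed here.

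ST18 belongs to the MYT1 family of zinc finger proteins, which bind DNA through clustered CCHC-type fingers and are known from neurons, where they act largely as repressors. A recurring core of the sites bound by the family is AAAGTTT. In a ChIP experiment, DNA bound by the tagged factor is recovered with the antibody and sequenced. Input is the same chromatin without that step, and a window's input reads show how well it is recovered without selection.

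The label of the set, enrichment without chaperones, held for the symbols and not for every gene. Of the 237 windows, 9 (3.80%) belonged to a co-chaperone or immunophilin gene, or lay beside a window of this kind or a chaperone window that had been set aside. Those 9 were Mir207, 1700021C14Rik, Xpnpep3, Psph, Gm10069, Fkbp4, Ahsa2, Fkbp6 and Stip1. They made up 4 of the 17 windows at a log2 of 0.8 or more (23.5%) and 5 of the 14 windows with 60 or more reads in both columns together (35.7%). A neighbour counted only if its window was itself enriched, so these shares have no counterpart over all windows. They were not tested.

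Promoter sequences from RefSeq (GRCm38.p6, 300 bases each from 250 before to 50 after the annotated start) could be matched by symbol for 181 of the 237 genes. The files use mm9 and give no window coordinates, so these sequences stand for the gene's annotated start and may not be the window that was counted. The first 2 are the annotated starts of Ctdsp2, at chr10:126978467-126978766 (plus strand), the window with the most ST18 reads, and of Zfp467, at chr6:48445041-48445340 (minus strand), the highest zinc finger gene. Neither holds AAAGTTT on either strand.
Ctdsp2: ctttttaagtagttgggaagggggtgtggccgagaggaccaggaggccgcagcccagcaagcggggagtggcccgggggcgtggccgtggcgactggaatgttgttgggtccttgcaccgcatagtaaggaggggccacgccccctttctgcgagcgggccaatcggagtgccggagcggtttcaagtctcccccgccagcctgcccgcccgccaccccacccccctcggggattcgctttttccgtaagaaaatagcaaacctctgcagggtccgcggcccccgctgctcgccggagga
Zfp467: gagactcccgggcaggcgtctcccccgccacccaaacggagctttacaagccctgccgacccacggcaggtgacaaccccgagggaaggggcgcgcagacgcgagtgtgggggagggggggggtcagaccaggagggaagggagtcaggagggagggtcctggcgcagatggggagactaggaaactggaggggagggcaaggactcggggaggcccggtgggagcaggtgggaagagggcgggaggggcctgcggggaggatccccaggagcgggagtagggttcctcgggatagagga
The next 2 are shown because they hold AAAGTTT or its reverse complement AAACTTT, in capitals: Trim28, at chr7:13023902-13024201 (plus strand), and Flna, at chrX:74246485-74246784 (minus strand).
Trim28: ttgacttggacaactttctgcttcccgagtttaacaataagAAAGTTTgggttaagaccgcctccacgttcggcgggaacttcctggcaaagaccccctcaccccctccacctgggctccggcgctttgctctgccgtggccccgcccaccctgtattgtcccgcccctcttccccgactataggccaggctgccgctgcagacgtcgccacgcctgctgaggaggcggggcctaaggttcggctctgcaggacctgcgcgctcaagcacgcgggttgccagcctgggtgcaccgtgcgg
Flna: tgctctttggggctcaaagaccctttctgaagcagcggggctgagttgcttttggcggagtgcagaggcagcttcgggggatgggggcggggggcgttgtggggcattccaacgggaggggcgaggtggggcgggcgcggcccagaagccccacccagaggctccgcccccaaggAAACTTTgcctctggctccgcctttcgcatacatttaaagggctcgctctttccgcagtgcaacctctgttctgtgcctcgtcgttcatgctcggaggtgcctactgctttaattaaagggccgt
Another 2 hold the core of a heat shock element, GAANNTTC, in capitals. They are 1700021C14Rik, at chr3:88296950-88297249 (minus strand), and Fkbp4, at chr6:128438607-128438906 (minus strand).
1700021C14Rik: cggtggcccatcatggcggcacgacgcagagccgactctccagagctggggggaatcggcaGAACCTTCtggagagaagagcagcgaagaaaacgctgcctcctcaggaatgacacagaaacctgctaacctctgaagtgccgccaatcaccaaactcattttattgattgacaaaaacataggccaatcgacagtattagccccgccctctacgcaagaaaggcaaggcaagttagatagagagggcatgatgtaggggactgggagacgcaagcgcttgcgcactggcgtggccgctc
Fkbp4: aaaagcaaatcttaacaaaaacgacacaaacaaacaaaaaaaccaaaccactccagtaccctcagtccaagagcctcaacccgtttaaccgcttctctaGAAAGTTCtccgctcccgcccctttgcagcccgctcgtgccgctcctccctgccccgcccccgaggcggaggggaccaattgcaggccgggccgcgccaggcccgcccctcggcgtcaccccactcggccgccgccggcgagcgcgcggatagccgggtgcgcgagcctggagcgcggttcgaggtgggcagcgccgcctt
The last pair, Safb at chr17:56584732-56585031 (plus strand) and Safb2 at chr17:56584536-56584835 (minus strand), shows how the promoters of 2 enriched genes can share DNA. The 104 bases that both promoters share are in capitals, on opposite strands.
Safb: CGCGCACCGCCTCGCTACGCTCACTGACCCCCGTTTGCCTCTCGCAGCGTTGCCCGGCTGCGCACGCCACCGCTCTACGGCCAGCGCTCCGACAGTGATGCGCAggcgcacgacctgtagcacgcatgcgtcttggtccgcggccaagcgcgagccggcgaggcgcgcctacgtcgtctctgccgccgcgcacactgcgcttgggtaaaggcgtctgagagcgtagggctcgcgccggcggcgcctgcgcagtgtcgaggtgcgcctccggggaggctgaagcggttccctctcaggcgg
Safb2: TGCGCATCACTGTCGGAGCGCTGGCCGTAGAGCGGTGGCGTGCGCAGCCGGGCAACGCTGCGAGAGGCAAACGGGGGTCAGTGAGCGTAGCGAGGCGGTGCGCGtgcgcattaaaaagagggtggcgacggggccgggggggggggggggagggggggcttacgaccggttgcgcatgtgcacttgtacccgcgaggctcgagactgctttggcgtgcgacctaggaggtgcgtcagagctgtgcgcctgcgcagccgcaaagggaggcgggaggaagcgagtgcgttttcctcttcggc

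Of the 237 windows, 8 belonged to microRNA genes, short RNAs that pair with messenger RNAs mainly through a seed, bases 2 to 8 of the mature strand. RefSeq gives 14 mature sequences for them, with 14 different seeds, so no seed was shared. The following 5 are printed 5′ to 3′ with the seed in capitals: the most enriched microRNA gene, 3 that lie together on chromosome 12, and miR-9, a microRNA abundant in neural progenitors.
mmu-miR-207: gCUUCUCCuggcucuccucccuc
mmu-miR-412-3p: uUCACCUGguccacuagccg
mmu-miR-369-3p: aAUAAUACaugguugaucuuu
mmu-miR-410-3p: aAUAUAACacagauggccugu
mmu-miR-9-5p: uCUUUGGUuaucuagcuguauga
These are the RNA products of the genes. They are not sequences that ST18 was tested on.

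Enrichment in the 237 windows was mostly small. The log2 values ran from 0.58 to 1.18 with a median of 0.65, and 174 windows were below 0.7. A total of 17 reached 0.8 and 6 reached 1. The windows held 20 to 89 ST18 reads, median 36, against a median of 20 over all windows, and 0 to 12 input reads, median 3, against a median of 7. The excess therefore came with both more ST18 reads and fewer input reads than usual. Summed over the set, 8845 ST18 reads stood against 825 input reads, a ratio 3.92 times that of all promoters (438960 to 160443, or 2.74 ST18 reads per input read). Folds below are over this ratio, with exact (Clopper-Pearson) 95% intervals that cover counting error only. Copies of 1 molecule cannot be recognised among the reads, so true errors may be larger.

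Low input counts were common in the set. In 201 of the 237 windows (84.8%) the input count was 5 or less, as it was in 31.3% of all windows. In 11 windows no input read was counted, in 68 there were 1 or 2, and in 6 windows the input count was above the median of all windows. The 15 windows set aside differed in this respect, as 14 of them (93.3%) had more than 5 input reads against 36 of the 237 (15.2%). Their median was 80 ST18 and 8 input reads. At the threshold itself, Cc2d1b, Mpo and Tpm2 were just inside with 38 ST18 and 5 input reads each. Srsf3 (49 and 8 reads), 4930429F11Rik and Mtap4 (23 and 1 read each) were just outside, and 93 windows lay between 0.55 and 0.58.

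**Figure D1:**
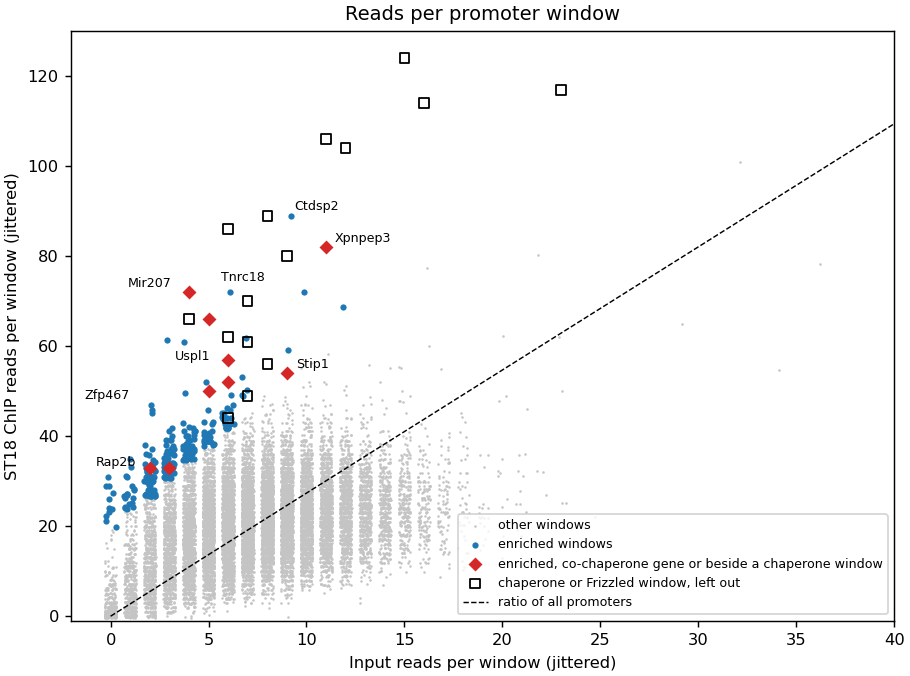
Input reads (horizontal) against ST18 ChIP reads (vertical) in each promoter window, with a small random offset for all but the red and open symbols. Windows outside the axes are not drawn, and the dashed line is the ratio of all promoters. Most of the enriched windows sit at 5 or fewer input reads, while Ctdsp2 and Xpnpep3 lie among the chaperone windows that were set aside.

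How many windows exceeded counting error depended on the standard used. The 95% interval of the fold was above 1 in all 237, which the threshold itself brings about, and in 518 windows of the table (2.37%). Lower bounds ran from 1.07 in Stip1 to 2.89 in Rap2b. They were above 1.5 in 54 windows and above 2 in 17, of which 9 had no input read (Rap2b, Gjb5, Aox3l1, Rhox12, B4galt2, 1700015E13Rik, Eras, Stk39 and Fnip2). With a 99% interval, 125 of the 237 were above 1. When each window was compared with the ratio of all promoters (two-sided exact binomial test, Benjamini-Hochberg adjustment over all 21881), 8 windows were called higher in ST18 (0.0366%), and 2 of these were among the 237, Mir207 and 5730422E09Rik, against 6 of the 15 that were set aside. With the ratio implied by the factor 0.4055 as the reference, 10 of the 237 were called. With the ratio of all promoters and Holm adjustment, 0 were called. The counts with the 99% interval and with the ratio of the factor have no share over all windows beside them. The same counts chose the set, so they are a description.

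A calculation of what counting error alone gives sets these numbers in scale. If every window had the same true ratio and kept its own total of reads, 83.4 of the windows outside the excluded families would reach 0.58, which is 35.2% of the 237 found. At 0.8 the computed number was 1.58 against 17 found, and at 1 it was 0.0115 against 6. With the ratio implied by the factor 0.4055 in place of that of all promoters, the computed numbers were 40.1, 0.585 and 0.00321. No calculation of this kind says which windows exceed counting error, and variation between samples, which 1 column cannot show, was not part of it.

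The found share of windows stood further above the computed share at higher read totals. The total includes the ST18 reads that the enrichment uses, so the rise describes the same counts that chose the set. Of 7425 windows with 20 to 29 reads in both columns together, 36 were in the set (0.485%, against a computed 0.269%). Of 6783 windows with 30 to 39 reads it was 84 against 39.3, and of 2245 with 40 to 49 reads it was 82 against 20.4. Among 307 windows with 50 to 59 reads, 21 were in the set against 2.94 computed. Among the 63 windows with 60 or more reads, 14 (22.2%) were in the set against 0.738 computed. The pseudocount of 16 keeps windows of under 20 reads out, and none of those 4962 reached the threshold.

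**Figure D2:**
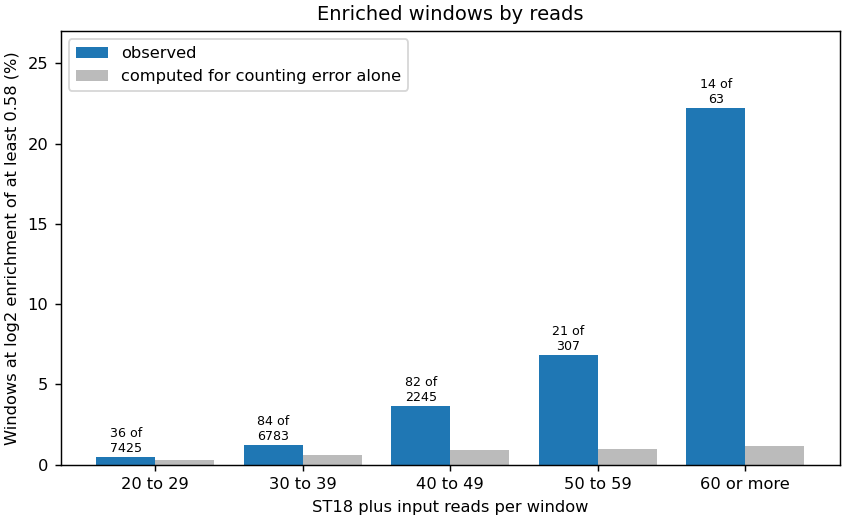
Share of windows outside the excluded families that reached a log2 enrichment of 0.58 (vertical, percent), by the sum of ST18 and input reads (horizontal). Blue bars are the observed shares with their counts, and grey bars the shares computed for counting error alone. The observed share climbs to 22.2% at 60 or more reads, while the computed share goes from 0.269% to 1.17%. ST18 reads enter both the total and the enrichment.

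The 14 windows with 60 or more reads rest on the most reads. Their intervals were not all narrow, and their lower bounds went down to the 1.07 of Stip1. Ctdsp2, which encodes a small phosphatase of the RNA polymerase II C-terminal tail, had 89 ST18 and 9 input reads, 3.61-fold over all promoters (interval 1.82 to 8.16). Tnrc18, a BAH-domain chromatin protein, had 72 and 6 reads (4.39-fold, 1.92 to 12.3). Uspl1, a SUMO isopeptidase of Cajal bodies, had 61 and 4 reads (5.57-fold, 2.07 to 21.1). These 3 had no enriched chaperone window beside them by the annotation used, and chaperone windows below the threshold were not searched. The intervals of the 3 overlap widely, so no order among them can be read.

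The other deep windows covered several functions. Abcc5, an ABC transporter that exports organic anions and cyclic nucleotides, had 62 ST18 and 7 input reads (3.24-fold, 1.48 to 8.38). Exoc8, a subunit of the exocyst that tethers secretory vesicles, had 72 and 10 reads (2.63-fold, 1.35 to 5.72). D4Wsu53e, named Rsrp1 in RefSeq, had the most input reads of the set, 12, with 69 ST18 reads (2.10-fold, 1.13 to 4.26). The genes 5730422E09Rik, named Mm2pr in RefSeq (61 and 3 reads), and AA543186 (59 and 9 reads) were 7.43-fold (2.43 to 37.0) and 2.40-fold (1.18 to 5.50) over all promoters, and 1110059G10Rik, with 45 and 2 reads, was shallower.

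Windows with chaperone neighbours or chaperone functions held several of the highest counts. Mir207, whose gene overlaps or adjoins the J-protein gene Dnaja1, had the highest log2 of the set, 1.18, from 72 ST18 and 4 input reads (6.58-fold, 2.46 to 24.8). The Dnaja1 window itself had 62 and 6 reads. 1700021C14Rik is named Tsacc in RefSeq, a co-chaperone of a testis kinase, and starts 136 bp from Cct3 on the opposite strand. Its 66 ST18 and 5 input reads were close to the 66 and 4 of Cct3. Xpnpep3, a mitochondrial aminopeptidase gene, lies beside St13 and had 82 and 11 reads against 80 and 9. Psph, the phosphatase of the last step of serine synthesis, starts 103 bp from the chaperonin gene Cct6a and had 52 and 6 reads against 44 and 6. In these 4 pairs the windows may hold the same reads, which cannot be tested without window coordinates.

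The set also held 4 genes of co-chaperones and immunophilins. Fkbp4, an immunophilin that works with HSP90 in steroid receptor complexes, had 50 ST18 and 5 input reads (3.66-fold, 1.47 to 11.7), and its neighbour Gm10069 had 57 and 6. Ahsa2, related to an activator of the HSP90 ATPase, had 33 and 2 reads (6.03-fold, 1.54 to 51.9), and Fkbp6 had 33 and 3 (4.02-fold, 1.26 to 20.5). The intervals of all 4 overlap. Stip1, the adaptor that links HSP70 to HSP90, had 54 and 9 reads and the smallest lower bound of the set (2.19-fold, 1.07 to 5.05). Of 63 windows on a list of proteostasis symbols outside the excluded families, 3 were in the set (4.76%). The share of all windows outside those families was 1.09%, and the difference, which rests on 3 windows, was not tested.

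Some enriched windows belonged to neighbouring genes. Within 1000 bp or overlapping in RefSeq, 11 pairs joined 19 of the 237 genes, which reduced the set to 227 separate loci. In 6 pairs with known starts, the starts were 77 to 706 bp apart and all 6 lay on opposite strands, as divergent promoters do. Pairs were sought only among enriched windows, so these counts have no share over all genes beside them. Sdha, a subunit of succinate dehydrogenase, and Ccdc127 were 77 bp apart with 39 ST18 and 5 input reads and 46 and 6. Utp18 and Mbtd1, a ribosome biogenesis gene and a methyl-lysine reader, were 84 bp apart with 43 and 6 reads and 46 and 6. Chtf18 and Rpusd1 were 302 bp apart with 43 and 4 reads and 41 and 4. The photoreceptor membrane protein gene Rom1 and the microtubule-binding gene Eml3 were 307 bp apart with 37 and 4 reads and 37 and 3. Cep57l1 and Sesn1, the latter a stress-induced inhibitor of mTORC1, were 706 bp apart with 36 and 2 reads and 32 and 2. Windows of 1000 bp around such starts can share reads, so members of a pair are not separate evidence.

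The SAFB family appeared with all 3 of its genes, which was seen after the values were known. These proteins bind both scaffold-attachment DNA and RNA. Sltm had 52 ST18 and 5 input reads (3.80-fold, 1.53 to 12.2). Safb and Safb2, whose starts are 397 bp apart and whose promoters share the capitals printed above, had 38 and 4 reads and 37 and 4. The 3 genes therefore stand for 2 loci. The microRNA genes Mir412, Mir369 and Mir410 in the chromosome 12 cluster had 50 and 7, 52 and 6, and 40 and 5 reads, and also count as 1 locus. Mir673, elsewhere on chromosome 12, had 37 and 4 reads. The window of another microRNA gene, Mir409, had 47 and 8 reads and was below the threshold, at a log2 of 0.547. Mir365-1, on another chromosome, had 50 and 5 and Mir9-1 had 40 and 4. Pcdhac2 and Pcdha4-g, of the clustered protocadherins, had 45 and 6 and 31 and 3 reads, and their gene models overlap. The Pcdha4 window, with 31 and 4 reads, was below the threshold.

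**Figure D3:**
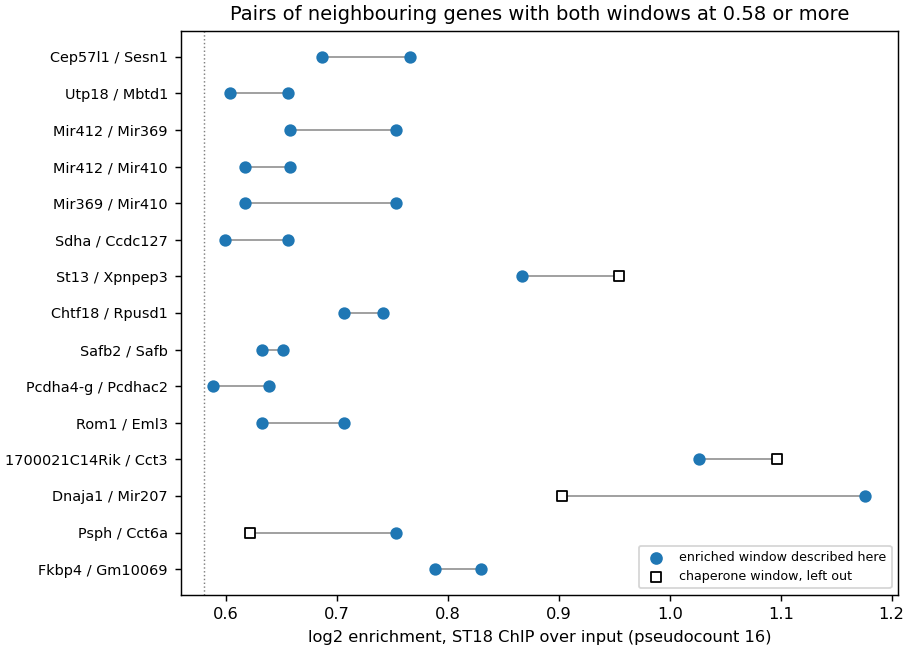
Log2 enrichment (horizontal) of both windows in each pair of neighbouring genes, named on the vertical axis. Filled points are windows of the set, open squares are chaperone windows that were set aside, and the dotted line is the threshold of 0.58. Both windows of each pair lie at or above the line because only such pairs are drawn.

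By role, assigned by hand to the named genes of the set only, the set was spread over many functions. The other windows were given no role, so these counts have no share over all windows beside them. Intracellular signalling held 28 genes, as did predicted or unnamed genes (15 of which have another name in RefSeq). There were 25 metabolic enzymes, 22 genes of RNA synthesis, processing and translation, 22 of cytoskeleton, junctions and matrix, and 22 transcription factors and cofactors. Median log2 values by role lay between 0.61 and 0.67, so no role stood above the others by its median. A chosen threshold keeps such medians close together.

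The set held 22 transcription factors and cofactors. Zfp467, a zinc finger protein, had 47 ST18 and 2 input reads (8.59-fold, 2.25 to 73.0). Zfp369 had 33 and 1, and Nkapl, a testis-enriched relative of the Notch corepressor NKAP, had 35 and 1 (12.8-fold, 2.15 to 519.5). The wide intervals reflect 1 or 2 input reads. Other factors had lower values: Tbx4, a limb T-box factor, with 39 and 3 reads, Foxo6, a forkhead factor of the brain, with 33 and 2, and Zfp804b, a zinc finger gene, with 43 and 5. The lipid-sensing nuclear receptors Nr1h3 and Ppard had 47 and 6 and 35 and 3 reads, and the NF-kB subunit Rel had 39 and 4.

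Chromatin genes included several that silence or mark promoters. Prmt8, a membrane-anchored arginine methyltransferase of neurons, had 37 ST18 and 2 input reads (6.76-fold, 1.74 to 57.9). Trim28, the corepressor that joins KRAB zinc finger proteins to silencing enzymes, had 36 and 3 reads. Mll1, a histone H3 lysine methyltransferase, had 41 and 5, and Msl2, a subunit of a histone acetyltransferase complex, had 42 and 6. The condensin subunit gene Ncaph, with 49 and 7 reads, was the 1 member among 253 windows of cell cycle and DNA repair symbols (0.395%). Chromatin symbols as a list gave 3 of 306 (0.980%).

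RNA genes ranged from polymerase to translation. Eif2c1, which encodes Argonaute 1 of the microRNA silencing complex, had 38 ST18 and 2 input reads (6.94-fold, 1.79 to 59.4). Polr2a, the largest subunit of RNA polymerase II, had 29 and 2, and the splicing genes Sf3a2 and Hnrnpa1 had 40 and 4 and 27 and 1. Wdr27 was on the list by its symbol with 31 and 2. Elavl2, a neuronal RNA-binding protein, had 27 and 2 and lay near the threshold. Vars, a valine tRNA ligase gene, had 21 ST18 reads and no input read. RNA processing and translation symbols gave 11 of 754 windows (1.46%).

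Signalling genes included kinases, phosphatases and small GTPases. Rap2b, a Ras-family GTPase, had 31 ST18 reads and no input read, at least 3.78-fold higher against a floor of 3 input counts, a bound that leaves out the error of the ST18 count. Its 95% lower limit, which includes that error, was 2.89. Eras, a Ras-like gene of embryonic stem cells, had 24 and 0 (at least 2.92-fold against the floor alone, with a 95% lower limit of 2.20). Ulk1, the kinase that starts autophagy, had 27 and 2. The phospholipase gene Plcd1 had 39 and 3 reads, Dyrk3, a kinase that dissolves condensates, 43 and 5, and Prkrip1, a splicing-associated protein listed here by its symbol, 33 and 2. Kinase and phosphatase symbols gave 8 of 474 windows (1.69%).

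Structural, metabolic and traffic genes followed. Csrp2, a LIM protein of smooth muscle and stellate cells, had 46 ST18 and 2 input reads (8.41-fold, 2.20 to 71.5), and Gjb5, a connexin, had 29 and 0 (at least 3.53-fold against the floor alone, with a 95% lower limit of 2.69). Pcdh15, a protocadherin of hair-cell tip links, had 31 and 1. Nagk, the kinase of N-acetylglucosamine, had 50 and 4 (4.57-fold, 1.68 to 17.4), and the aldehyde oxidase gene Aox3l1 had the same counts and limits as Gjb5. Acot7, an acyl-CoA thioesterase of brain, had 41 and 4 reads. Chmp6, an ESCRT-III subunit that helps to cut membranes, had 42 and 3 (5.12-fold, 1.64 to 25.8), and the synaptotagmin gene Syt15 had 31 and 2. Vesicle and membrane traffic symbols gave 9 of 413 windows (2.18%), and cytoskeleton, adhesion and matrix symbols 14 of 812 (1.72%).

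Receptor, ligand and transporter genes were spread over several families. The thromboxane receptor gene Tbxa2r had 41 ST18 and 3 input reads (interval of the fold 1.59 to 25.2). Grin3a, an NMDA receptor subunit, had 39 and 3, Fgf12, an intracellular FGF-related protein, 34 and 3, and Gpr120, a fatty acid receptor, 30 and 2. Wnt5a, a ligand of noncanonical Wnt signalling, stayed in the set although the Frizzled receptors had been set aside, with 32 and 3 reads (3.90-fold, 1.22 to 19.9). Extracellular signal and receptor symbols gave 7 of 750 windows (0.933%) and membrane transport symbols 7 of 963 (0.727%), among them Slc35e2 with 41 and 5 reads.

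Ubiquitin and apoptosis genes and the remaining lists completed the set. Ubiquitin and proteasome symbols gave 9 of 557 windows (1.62%). Apoptosis symbols gave 2 of 49 (4.08%), the BH3-only gene Bcl2l11 with 32 ST18 and 2 input reads and Diablo, which blocks inhibitors of apoptosis, with 30 and 2. Chemosensory receptor symbols gave 4 of 1515 (0.264%), led by Olfr15 with 34 and 3, Olfr535 with 30 and 2 and Olfr70 with 25 and 1, in a list whose windows held a median of 15 reads, below what the threshold needs. In all, 11 of 17 symbol lists were above the background of 1.09%, 106 of the 237 genes were in no list, and no list was tested. Of the 11, predicted or unnamed genes (28 of 2521, 1.11%) and microRNA and small RNA genes (8 of 706, 1.13%) were close to that background. The list of homeobox, bHLH, Sox and forkhead factors (4 of 307, 1.30%) was above it with Tbxa2r, a receptor gene, counted. A list takes genes by the start of the symbol, and so Tbxa2r fell among the T-box factors and Rhox12, a homeobox gene with 27 ST18 reads and no input read, among the cytoskeletal genes.

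**Figure D4:**
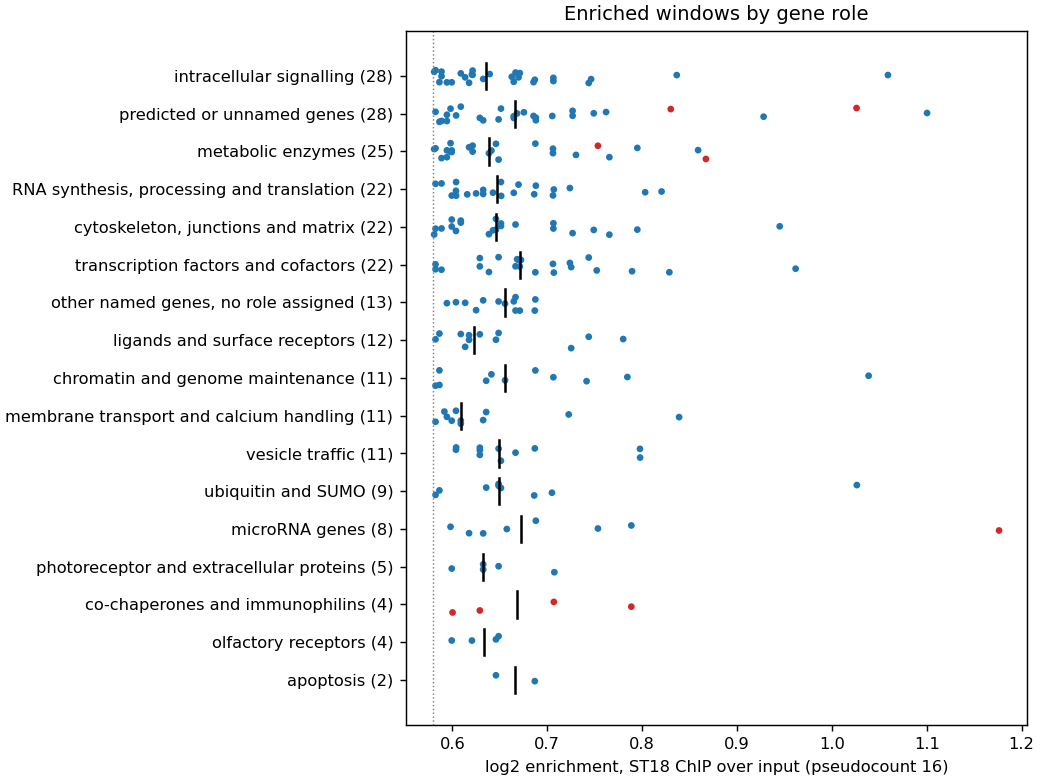
Log2 enrichment (horizontal) of each of the 237 windows by gene role, with the number of genes in brackets. The vertical bars are medians, the dotted line is the threshold of 0.58, and red points are the 9 windows of co-chaperones or beside chaperone windows. The 6 points at 1 or more belong to signalling, chromatin, ubiquitin and SUMO, microRNA and predicted or unnamed genes.

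The set held 1 of the cell type markers that were looked up. Of 31 markers of progenitors, neurons, glia, microglia and endothelium, 30 had a window under the symbol searched, and 1 was enriched. It was the endothelial cadherin gene Cdh5, with 32 ST18 and 3 input reads (3.90-fold, 1.22 to 19.9). The other endothelial markers, Pecam1 and Kdr, were not in the set. The marker not found by its symbol was Map2, whose window carries the older symbol Mtap2 (27 and 8 reads) and was not enriched. Of all windows outside the excluded families, 1.09% were in the set. The St18 promoter itself had 21 and 7 reads and was 1.10-fold over all promoters (0.449 to 3.05). By annotated type, 216 of 19903 protein-coding genes were in the set (1.09%), as were 9 of 562 long noncoding RNA genes (1.60%) and 8 of 565 microRNA genes (1.42%).

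Base composition and motifs could be read for 181 of the 237 promoters. This is 76.4%, under the 80% set as a minimum, so a check of sequence over the set is void and the values describe the matched promoters only. Their median GC content was 63.3% against 57.0% in 16392 matched promoters. With the promoters sorted by GC content into 5 equal bins, the lowest bin held a median of 19 reads and gave 7 of 3279 windows in the set (0.213%), whereas the highest held 30 reads and gave 56 of 3279 (1.71%). The bins between, from lower to higher GC content, held medians of 27, 30 and 31 reads and gave 0.549%, 1.28% and 1.77%. Depth thus rose with GC content over the lower bins and was nearly level over the upper ones. Its part in the result was not tested.

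AAAGTTT, searched on both strands, was in 6 of the 181 promoters (3.31%, exact 95% interval 1.23% to 7.08%) against 707 of 16392 (4.31%). The 6 were Trim28, Ppard, Fam173b, Lama2, Olfr70 and Flna. GAANNTTC was in 17 (9.39%) against 1134 (6.92%), among them 1700021C14Rik, Abcc5, Fkbp4 and Sesn1. GGGCGG, the GC box, was in 67.4% against 48.7%. Median GC content also differed, 63.3% against 57.0%, and its part in these motif shares was not tested. A match says only that these letters occur in the 300 bases.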

How the data were processed

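Read counts in 1000 bp promoter windows were deposited by the authors in 1 ST18 column and 1 input column, with a log2 enrichment. The submitters' processing notes name Bowtie, MACS2 2.0.10.20120913, TopHat2 2.0.8, HTSeq 0.5.4p1, edgeR and the build mm9. The tool behind the table, the window position and any duplicate removal were not given in the sources used here. Deposited log2 values were rebuilt from the counts to within 4.7e-05, with a pseudocount of 16 and the ST18 factor recovered from the column. The pseudocount holds low-count windows near 0. The deposited peak list was not used here.

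Folds, intervals, exact binomial tests and computed numbers for counting error were made in Python 3.11.15 with scipy 1.17.1. The test was also run on simulated counts, with changes larger than any fold of the set and placed in deeper windows only. That run does not show what the test finds at the folds and depths of the set. Depth was 438960 ST18 and 160443 input reads in windows. Where no input read was counted, the fold used a floor of 3 counts. Of the 237 symbols, 236 matched RefSeq. Genes within 1000 bp or overlapping were neighbours.

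Named genes were the 20 highest with a known name, those called after adjustment, the highest 3 of each symbol list, those at the threshold, those with most reads in either column, and neighbours. Some genes that this rule names are not reported here. Any other gene was picked with its values in view. Members, lists, roles and motifs were chosen with earlier results of these data known. Alternatives were other scalings, pseudocounts, thresholds, intervals and adjustments. Leaving out 1 member of each neighbour group, and counting low-input windows under other settings, were added after seeing the data.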

Additional observations from a re-analysis of the deposited data

How the results depend on the processing

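The number of enriched windows, 237, depended on the scale. It was 120 when scaled by promoter totals and 157 when centred on the median, 1507 with a pseudocount of 8 and 5240 with a pseudocount of 1, 36 with more than 5 input reads, 17 at a threshold of 0.8 and 6 at a threshold of 1. All 237 remained at the lower pseudocounts. It was 234 without the proteostasis list and 227 with 1 window for each group of neighbours. Windows above counting error numbered 125 with a 99% interval, 0 when the error was divided over all windows, 36 with more than 5 input reads and 17 at 0.8. Calls after adjustment went from 2 to 10 with the ratio of the deposited factor and to 0 with Holm adjustment. The 8 further calls were Ctdsp2, Tnrc18, Uspl1, 1700021C14Rik, Zfp467, Csrp2, 1110059G10Rik and Rap2b. The numbers with a 99% interval and with the ratio of the deposited factor have no share over all windows beside them. Windows with 5 or fewer input reads numbered 1143 with a pseudocount of 8 and 12 at 0.8. The share of promoters with AAAGTTT was 0% at 0.8, where 13 windows had a promoter sequence, too few to read a change from. The difference in median GC content kept its direction. Input depth, a median of 7 reads per window, limits each value. No paired analysis was possible because the table has 1 ST18 column and 1 input column and carries no replicate number.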
